A study of Mus musculus with 4 samples.

Results

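Olfactory receptor transcripts were examined in testis RNA-seq libraries from Fam170a knockout (KO) and wild-type (WT) mice. Members were chosen by their summed counts: they were rows of the count table with an Olfr symbol or a description naming an olfactory receptor, and with at least 10 counts summed over the 4 libraries. By this rule 203 of 1153 olfactory receptor genes in a table of 22274 genes were members (17.6%). The level over all libraries thus chose them, and the difference between genotypes was not used. Of the other receptor genes, 628 had no count and 322 had 1 to 9 counts. The threshold fell where the genes were dense, with 12 members at a sum of exactly 10 and 11 genes just outside at 9.

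Both groups were testes of adult mice, with 2 KO and 2 WT libraries. The KO group is given as knockout of Fam170a for KO replicate 1, while for KO replicate 2 the genotype is written as Fam171a. The sources used here do not give strain, exact age, knockout allele or number of animals per library. Nothing says that the libraries came from separate animals, so a p-value reflects spread between libraries that may be technical.

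Olfactory receptors are G protein-coupled receptors that detect odorants in the nose, where each sensory neuron expresses a single receptor gene. Receptor activation there acts through the G protein subunit encoded by Gnal, adenylyl cyclase and a cyclic nucleotide-gated channel. The family is the largest in the mouse genome, lies in clusters on many chromosomes, and is split into class I, shared with fish, and class II. Transcripts of some members are known from testis, and receptors on sperm have been studied for chemotaxis and motility.

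Fam170a had 1 and 1 counts in the KO libraries, against 2240 and 3510 counts in the WT libraries, so both KO libraries, including that written as Fam171a, were nearly devoid of the transcript. Libraries held 34740160 and 41684437 counts in KO testes, against 26029374 and 35494303 in WT testes. Receptor genes took 0.114% and 0.122% of counts in KO testes, against 0.0969% and 0.120% in WT testes. Levels are given as CPM, the counts divided by a library size that was scaled with TMM factors, and are also given per kb of exonic length, since a longer transcript yields more reads. Intervals and floors cover counting error only, because PCR reads without molecular identifiers can repeat a molecule.

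A few genes carried most of the receptor reads. Olfr46 had 435 and 487 CPM in KO testes, against 343 and 405 CPM in WT testes, and alone made up 37.0% of the summed level of the 203 members. Olfr1385 followed with 156 and 174 CPM in KO testes, against 131 and 154 CPM in WT testes. Both genes had their 2 KO values above their 2 WT values, by margins smaller than the gap between the WT libraries. Olfr46 lies on chromosome 7 (GRCm38 chr7:140601269-140617678, + strand) and Olfr1385 on chromosome 11 (chr11:49489070-49497496, + strand). Of the 50-base words in their transcripts, 32.1% in each also occur in other genes, against a median of 5.08% over members. How reads from such words were counted is not stated, so both levels are uncertain in part. Per length they also ranked first and second, at means of 53.4 and 34.7 CPM per kb, with Olfr986 at 14.5, Olfr839-ps1 at 11.7 and Olfr701 at 6.22 CPM per kb. The 10 most abundant members took 81.2% of the summed level and the top 50 took 96.4%.

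Below the leading pair the levels dropped further. Olfr839-ps1, which is named as a pseudogene, had 85.7 and 106 CPM in KO testes, against 75.5 and 94.6 CPM in WT testes. Olfr986 had 46.4 and 56.8 CPM in KO testes, against 47.2 and 52.1 CPM in WT testes. Olfr374 had 38.0 and 48.6 CPM in KO testes, against 37.0 and 46.8 CPM in WT testes. In each of these 3 genes the groups overlapped. In all, 14 members averaged at least 10 CPM, 34 lay between 1 and 10 CPM, and 155 were under 1 CPM and together made up 3.81% of the summed level. The median member averaged 0.284 CPM.

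**Figure D1:**
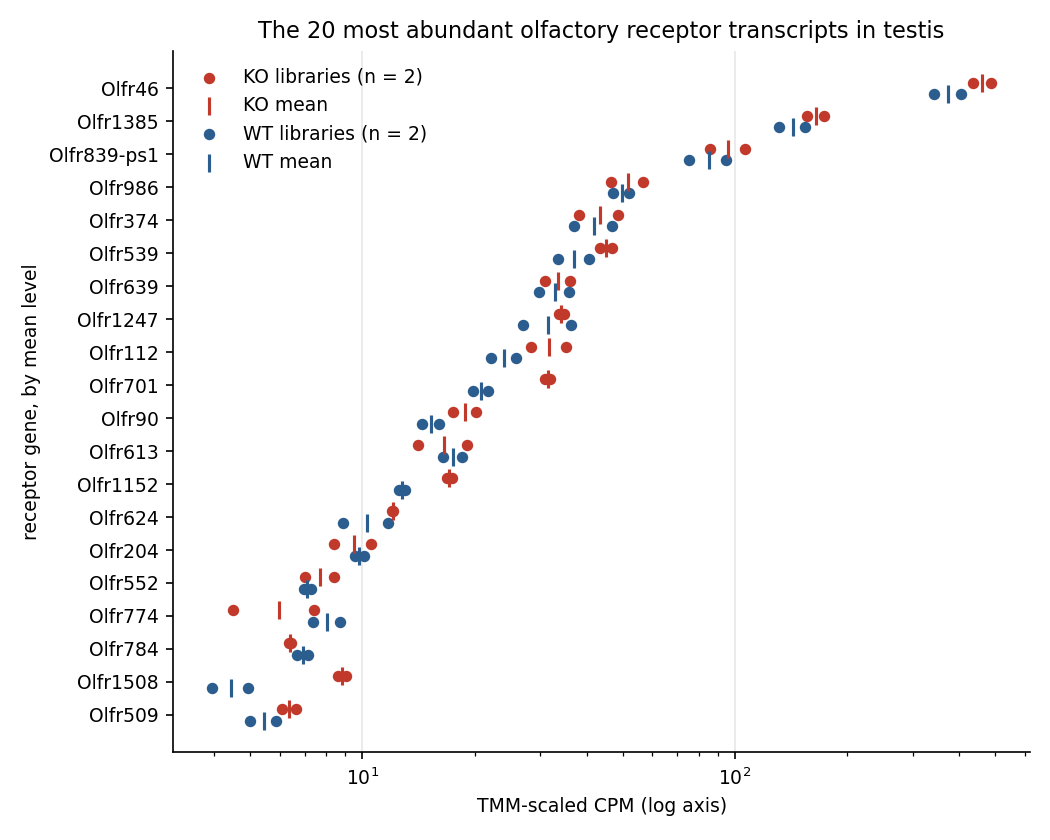
TMM-scaled CPM (log axis) of the 20 members with the highest mean level, with each library as a point and each genotype's mean as a vertical tick (KO above WT, n = 2 each). Olfr46 (435 and 487 CPM in KO, 343 and 405 CPM in WT) stands well to the right of all others. In most genes the KO and WT points lie close together or overlap.

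Between genotypes, Olfr1392 and Olfr1393 were the receptor genes called higher in KO testes, and no member was called lower. Of the 203 members, 105 passed the filter on low counts and were tested, and 98 did not. With edgeR's quasi-likelihood test and Benjamini-Hochberg adjustment over all 15636 genes at 0.05, 2 members were higher in KO testes, where 0.454% of all genes tested were called higher. The count of members lower was 0 (background also 0.454%). DESeq2 and limma-voom also called 0 lower (backgrounds 4.98% and 0.441%), and 2 members were lower in edgeR at an unadjusted p under 0.05. DESeq2 defined an adjusted p for only 12604 of the 15636 genes, and its background is over these. How many members were among them is not given, so its 0 covers fewer than the 105 members tested. With a summed count of 10 as the only filter, so that all 203 were tested, the same 2 were higher (background 0.431%) and 0 lower (0.512%). With no filter 4 were higher (background 0.872%) and 0 lower (1.43%). Without adjustment 12 members were higher (11.4% of those tested, against 11.8% of all genes), and the 2 lower were 1.90%, against 12.8% of all genes. Over all genes the split of 71 higher and 71 lower calls became 32 higher and 50 lower when libraries were scaled by total counts.

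Olfr1392 had 151 and 188 counts in KO testes, against 3 and 7 counts in WT testes. These were 4.41 and 4.80 CPM in KO testes, against 0.115 and 0.183 CPM in WT testes. Both KO libraries thus held far more of it than either WT library, and the groups did not overlap. This was a log2 difference of 4.86 ± 0.32 (SE) with an edgeR adjusted p = 0.00713, and the ratio of summed rates was 29.7 (exact Clopper-Pearson 95% interval 15.9 to 62.4). Olfr1393 had 76 and 97 counts in KO testes, against 8 and 8 counts in WT testes. These were 2.22 and 2.48 CPM in KO testes, against 0.307 and 0.209 CPM in WT testes, again with no overlap. The log2 fold change of Olfr1393 came to 3.20 ± 0.35 (SE) with an edgeR adjusted p = 0.0283, and the ratio of rates to 9.46 (5.66 to 16.9). In mouse kidney, Olfr1393 is known as a receptor that affects renal glucose handling.

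The call of Olfr1393 ended without KO replicate 1 (edgeR adjusted p = 0.142) and without KO replicate 2 (adjusted p = 0.222), while its log2 fold change stayed at 3.28 and 3.11. In DESeq2 its adjusted p is not defined, and its unadjusted p is 4.4e-08.

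The pair lies side by side on the + strand of chromosome 11, Olfr1393 at chr11:49278304-49282769 and Olfr1392 at chr11:49285282-49295891, separated by 2512 bases. Their coding sequences are each 933 bases long and identical at 893 positions (95.71%). Another close copy, Olfr10, starts 8849 bases beyond Olfr1392 and matches it at 95.18% and Olfr1393 at 96.68%, yet had 0 counts in all 4 libraries. The stretch of most difference is printed here, since reads from there can tell Olfr1392 from Olfr1393 and the sources used here do not state how reads matching several genes were counted. The deposited table gives Olfr1392, Olfr1393 and Olfr1385 the same symbol, Olfr10, so the genes were told apart by their Ensembl identifiers.

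Of all windows of 90 coding bases, bases 103 to 192 are where the pair differs most (GENCODE M21 on GRCm38, + strand, Olfr1392 chr11:49293425-49293514 and Olfr1393 chr11:49280252-49280341). Capitals mark bases that differ from Olfr1392, of which there are 13 in Olfr1393 and 14 in Olfr10, while Olfr1393 and Olfr10 differ from each other at only 1 base of the window:

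Olfr1392: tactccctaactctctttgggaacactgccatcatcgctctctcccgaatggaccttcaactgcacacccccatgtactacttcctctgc

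Olfr1393: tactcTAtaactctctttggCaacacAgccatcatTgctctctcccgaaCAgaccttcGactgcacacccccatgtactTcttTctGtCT

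Olfr10: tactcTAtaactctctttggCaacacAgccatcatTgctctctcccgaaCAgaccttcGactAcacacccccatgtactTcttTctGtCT

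Over the whole transcripts, 20.88% of the 50-base words of Olfr1392 and 26.55% of those of Olfr1393 occur in the other gene, so most of each gene can be told from its partner. In any other gene, 25.1% of the words of Olfr1392 and 30.1% of those of Olfr1393 occur. Olfr1392 shares an identical run of 152 coding bases with the abundant Olfr1385, against a longest run of 140 with Olfr1393. The division of counts between the 2 genes, and between Olfr1392 and Olfr1385, is therefore uncertain in part.

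The 2 genes belong to a cluster of 19 receptor genes that start within 500 kb of the start of Olfr1392 (chr11:48978889-49565859). Of these genes 6 were members and 5 had no count. Olfr1388 had 3.85 and 4.93 CPM in KO testes, against 3.88 and 3.74 CPM in WT testes (log2 fold change 0.21, edgeR adjusted p = 0.568). For Olfr1385, next to Olfr46 in abundance, the log2 fold change was 0.21 (edgeR adjusted p = 0.305). Olfr1383 had 0.992 and 0.868 CPM in KO testes, against 0.615 and 0.314 CPM in WT testes, a log2 fold change of 1.04 that did not pass the test (edgeR adjusted p = 0.218). Olfr1389 had 6 and 4 counts in KO testes, against 6 and 4 in WT testes, and was not tested. Within 100 kb the tested genes that are no receptors were Mgat1, a glycosyltransferase gene (log2 fold change -0.36, edgeR adjusted p = 0.251), and the zinc finger gene Zfp62 (0.23, adjusted p = 0.245). The calls in the cluster were thus those of the adjacent pair.

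**Figure D2:**
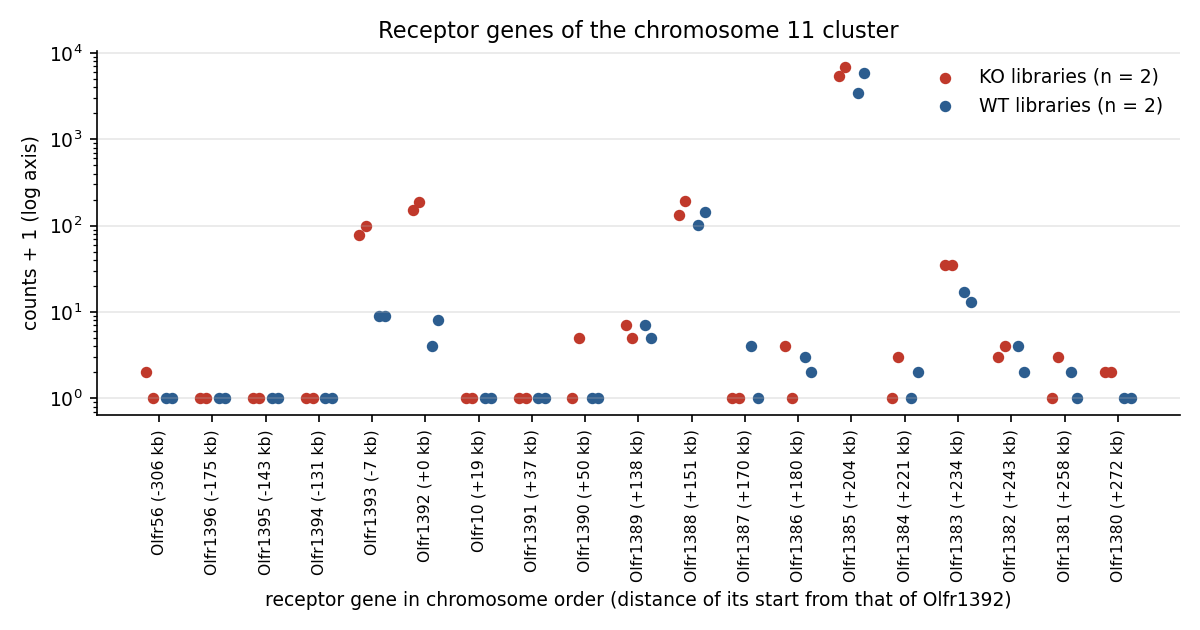
Counts plus 1 (log axis) in each library for the 19 receptor genes of the chromosome 11 cluster, in chromosome order with the distance of each start from that of Olfr1392 (KO left of WT, n = 2 each). Olfr1393 and Olfr1392 have 76 to 188 counts in KO libraries and 3 to 8 in WT libraries. Olfr1388 and Olfr1385 differ far less between genotypes, and Olfr10 has no counts. The counts are not scaled for library size, which differs between libraries.

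The members with the next smallest p were also higher in KO testes, but did not pass the adjusted threshold. Olfr1508 had 8.61 and 9.01 CPM in KO testes, against 3.96 and 4.92 CPM in WT testes (log2 fold change 0.98 ± 0.17, edgeR adjusted p = 0.0809). Olfr701 had 30.9 and 31.9 CPM in KO testes, against 21.7 and 19.9 CPM in WT testes (0.60 ± 0.11, edgeR adjusted p = 0.0809). Olfr554 had 3.30 and 2.91 CPM in KO testes, against 0.768 and 1.46 CPM in WT testes (1.44 ± 0.34, edgeR adjusted p = 0.106). In all 3 the groups did not overlap, and DESeq2 called these 3 higher as well as Olfr1392 (background 3.04%). Olfr1152, whose exons overlap the pseudogene Gm13745 on the same strand, and Olfr128 had log2 fold changes of 0.42 and 0.58 (edgeR adjusted p = 0.120 and 0.135). Olfr307 was the member with the smallest p among those lower, at 0.175 and 0.255 CPM in KO testes, against 0.499 and 0.576 CPM in WT testes (-1.30 ± 0.46, edgeR adjusted p = 0.167).

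The most abundant members had small differences. Of the 12 highest, 11 had a positive log2 fold change, with a median of 0.19, and none passed the test. For Olfr46 the log2 fold change was 0.30 ± 0.11, with an edgeR adjusted p = 0.179. Olfr112 had 35.2 and 28.3 CPM in KO testes, against 25.9 and 22.1 CPM in WT testes (0.41, edgeR adjusted p = 0.179). Olfr539, which overlaps Olfr540-ps1 on the opposite strand, had 43.5 and 46.7 CPM in KO testes, against 33.6 and 40.5 CPM in WT testes (0.28, adjusted p = 0.226). Olfr90 had 17.5 and 20.2 CPM in KO testes, against 14.5 and 16.1 CPM in WT testes (0.30, adjusted p = 0.228). Olfr639, Olfr1247 and Olfr613 had overlapping groups and log2 fold changes of 0.02, 0.11 and -0.07. The signs of Olfr986, Olfr374, Olfr639 and Olfr1247 turned negative under scaling by total counts.

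Across the 105 members tested, 73 log2 fold changes were positive and 32 negative (69.5% positive, against 50.8% of all genes tested). The median was 0.22, against 0.01 over all genes. By level, 35 of 48 members averaging 1 CPM or more were positive, with a median of 0.22. Of the 57 tested members under 1 CPM 38 were positive, with a median of 0.21. Of the 203 members, 30 reached 10 counts in KO testes only and 13 in WT testes only. The part of sequencing depth in this split was not tested. Some low members thus entered mainly by their counts in a single genotype, so the counts of low members describe and do not support a direction. Both KO libraries exceeded both WT libraries in 40 of the tested members, against 14 with both below (backgrounds 29.4% and 27.9%). Over all 203 members the numbers were 59 above and 29 below (28.2% and 27.1% of all genes with that summed count), and 115 overlapped. As a share of the 203, those above were thus near the background, and those below were under it. Among the 105 tested, the share above was over its background and the share below was under it. Scaling by total counts moved the median over all genes by -0.11, to -0.10, and that of the members to 0.10. Under that scaling 65 of 105 members were positive (61.9%, against 37.8% of all genes tested). Without KO replicate 2 the members' median was 0.03, with 62 of 119 positive, and without WT replicate 1 it was 0.13, so leaving out KO replicate 2 took most of the shift away.

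**Figure D3:**
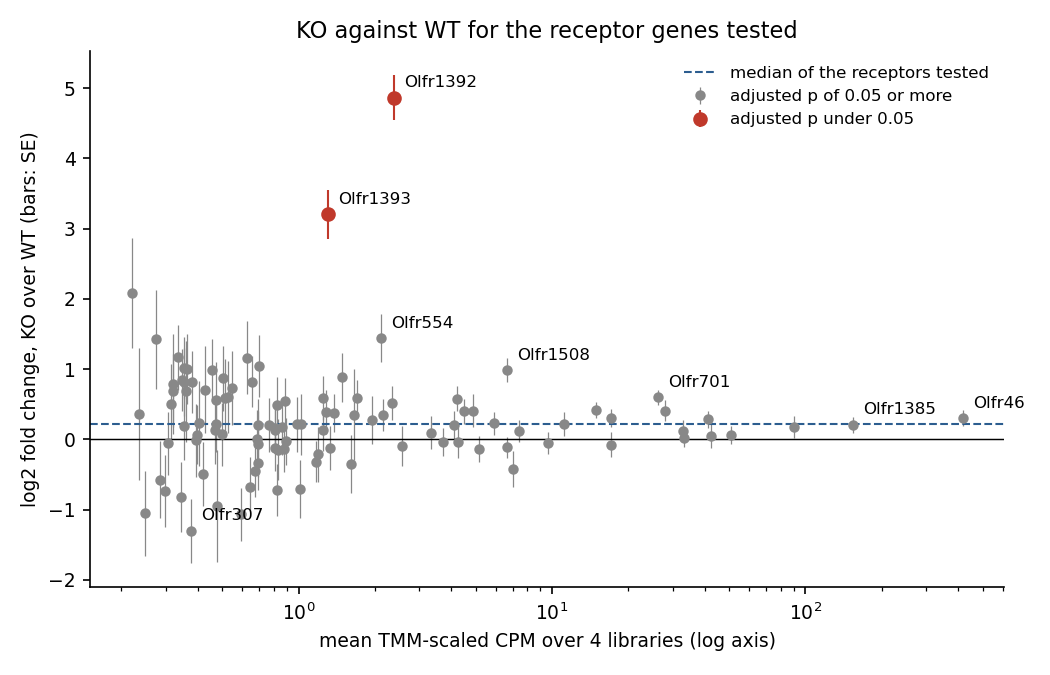
Log2 fold change, KO over WT, with its SE against mean TMM-scaled CPM (log axis) for the 105 members tested, with the dashed line at their median of 0.22. Olfr1392 (4.86) and Olfr1393 (3.20), with adjusted p under 0.05, lie far above the other members, and Olfr46, the most abundant, lies at 0.30.

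The summed level of the 203 members was 1152 and 1292 CPM in KO testes, against 963 and 1109 CPM in WT testes. The means were 1222 ± 98.7 CPM in KO testes and 1036 ± 103 CPM in WT testes (SD, n = 2 each), a ratio of 1.18. Both KO sums lay above both WT sums, but the exact two-sided permutation test gave p = 0.333, the smallest that 2 libraries against 2 allow. Without the pair of most abundant members the sums were 561 and 631 CPM in KO testes, against 489 and 549 CPM in WT testes. In bulk tissue, fewer cells of a type and less RNA per cell cannot be told apart.

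The number of receptor genes with at least 1 count was 358 and 351 in KO testes, against 290 and 343 in WT testes. At the depth of the smallest library these became 328 and 310 in KO testes, against 290 and 315 in WT testes, and the groups overlapped. With at least 5 counts at that depth the numbers were 129 and 134 in KO testes, against 130 and 132 in WT testes. The wider range of receptor genes counted in KO libraries therefore shrank to a difference of 16.8 genes (pooled SD 15.4) at equal depth.

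**Figure D4:**
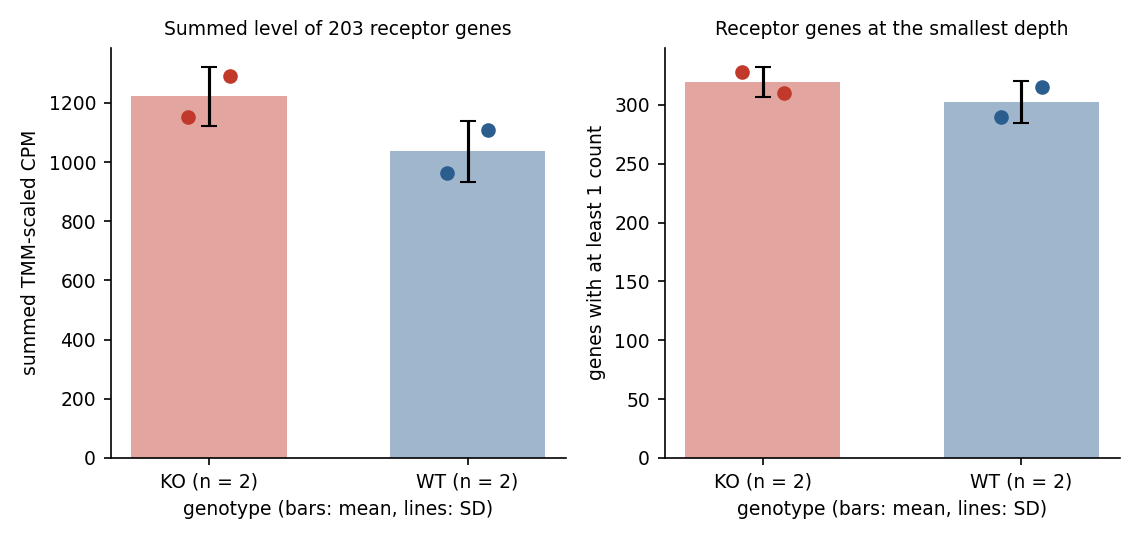
Summed TMM-scaled CPM of the 203 members (left) and expected number of receptor genes with at least 1 count at the depth of the smallest library (right), with points for libraries, bars for means and lines for the SD (KO left, WT right, n = 2 each). The KO sums of 1152 and 1292 CPM lie above the WT sums of 963 and 1109 CPM, while the gene numbers of 328 and 310 in KO and 290 and 315 in WT overlap.

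Members came from both receptor classes. By the family number in the deposited symbols, 25 members were class I (18.8% of the class I genes in the table), 141 were class II (18.2%), and 37 had no such number. Class I members took 6.66% and class II members 73.6% of the summed level. Their median log2 fold changes were 0.17 over 8 tested and 0.21 over 74 tested. Chromosome 7, which carries Olfr46, Olfr539 and 47 members in all, held 50.7% of the summed level. Chromosome 11 held 18 members and 14.9% of the level, chromosome 2 held 34 members of 300 receptor genes, and chromosome 16 held 15 members of 36. None of the 7 receptor genes on the X chromosome was a member. The median exonic length was 3688 bases for members, against 2874.5 bases for the other receptor genes, and 9.36% of members, against 4.11% of the others, shared exonic bases with another gene. A count rises with length, so length enters the rule itself.

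Beside Olfr1392 and Olfr1393, 4 receptors known from work on sperm or on other tissues outside the nose had 0 to 12 counts per library. Olfr16, known as MOR23 and studied in mouse sperm chemotaxis, had 0 counts in all 4 libraries, which allows up to 0.0875 and 0.0766 CPM in the KO libraries and 0.115 and 0.0785 CPM in the WT libraries (a floor of 3 counts per library). Olfr78, a receptor for short-chain fatty acids and lactate in kidney and carotid body, had 2 and 3 counts in KO testes, against 0 and 3 in WT testes, and was not a member. Olfr558, another fatty acid receptor, had 4 and 8 counts in KO testes, against 2 and 6 in WT testes. Olfr734, reported as a receptor for the hormone asprosin, had 12 and 3 counts in KO testes, against 6 and 6 in WT testes. In each of the 3 detected genes the groups overlapped.

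Transcripts for the signalling machinery of the olfactory neuron were partly present in testis. Of 19 genes listed for olfactory signal transduction 14 were tested and none passed, with a median log2 fold change of 0.04. Only 0.454% of all genes tested were called in each direction, so lists as short as those given here would mostly hold no call. Cnga4, a modulatory subunit of the olfactory cyclic nucleotide-gated channel, had 8.87 and 8.68 CPM in KO testes, against 5.95 and 5.31 CPM in WT testes (0.64, edgeR adjusted p = 0.103). Cngb1, another channel subunit, and Gnal had log2 fold changes of 1.06 and 0.75 (edgeR adjusted p = 0.128 and 0.154). Cnga2, the subunit needed for a functional channel in olfactory neurons, had 0 counts in all 4 libraries. Of the 10 receptor trafficking genes (Rtp and Reep families, chaperones that bring receptors to the cell surface), 8 were tested and none passed, with a median of 0.14. Reep2 had the smallest p, at 104 and 114 CPM in KO testes, against 98.5 and 93.3 CPM in WT testes (0.18, edgeR adjusted p = 0.273).

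The 14 genes listed for the choice and silencing of receptor genes in olfactory neurons were all tested. Of these 1 was lower in KO testes and 0 were higher (background 0.454% in each direction), with a median of -0.05. Lbr, the lamin B receptor that anchors heterochromatin at the nuclear envelope and whose absence from these neurons goes with clustering of receptor genes in the nucleus, had 9.28 and 8.35 CPM in KO testes, against 18.3 and 22.6 CPM in WT testes. On the log2 scale it fell by 1.22 ± 0.15 (SE) with an edgeR adjusted p = 0.0382. The call ended with DESeq2's size factors (adjusted p = 0.0502), with total counts (0.0534) and without either KO library (0.162 and 0.306). For Lhx2, a transcription factor that binds receptor enhancers, the log2 fold change was 0.41, with an edgeR adjusted p = 0.262. Of 20 genes for G protein and cAMP signalling in sperm, 19 were tested and none passed in edgeR with the low-count filter, with a median of -0.09. Arrb1, a beta-arrestin that desensitises G protein-coupled receptors, had 41.3 and 41.8 CPM in KO testes, against 28.8 and 27.8 CPM in WT testes (0.55, edgeR adjusted p = 0.0787). Gna13, a G protein alpha subunit, had 28.2 and 29.2 CPM in KO testes, against 38.6 and 38.2 CPM in WT testes (-0.42, edgeR adjusted p = 0.0995). DESeq2 called both (DESeq2 adjusted p = 0.00307 for Arrb1 and 0.0252 for Gna13, backgrounds 3.04% higher and 4.98% lower). With no filter edgeR also called Arrb1 (edgeR adjusted p = 0.0461).

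Markers of olfactory sensory neurons were scarce, and those of testis cells varied between libraries. The summed level of 6 neuron markers was 9.10 and 7.22 CPM in KO testes, against 6.95 and 6.36 CPM in WT testes, nearly all of it from Gnal and Adcy3. Omp, the defining marker of mature olfactory neurons, had 0 counts in 3 libraries and 4 in WT replicate 2. The 7 spermatid markers summed to 3389 and 5609 CPM in KO testes, against 7591 and 2775 CPM in WT testes, so the WT libraries stood further apart than the genotypes. This sum was carried by the Prm and Tnp genes. Acrv1, of the acrosome, had 315 and 300.1 CPM in KO testes, against 261 and 253 CPM in WT testes (0.26, edgeR unadjusted p = 0.0160, adjusted p = 0.132). Spaca1, of the acrosomal membrane, had 245 and 252 CPM in KO testes, against 220.0 and 212 CPM in WT testes (0.20, edgeR unadjusted p = 0.0383, adjusted p = 0.1802). The log2 fold changes of Prm1, Prm2, Tnp1, Tnp2 and Odf1 were negative, at -0.33, -0.37, -0.27, -0.13 and -0.14. The median of the 7 spermatid markers was -0.14. The 5 spermatocyte markers summed to 4212 and 4431 CPM in KO testes, against 4477 and 4540 CPM in WT testes, mostly from Ldhc and Hspa2. Their median log2 fold change was -0.59. Piwil1 was lower in KO testes (-1.61, edgeR adjusted p = 0.00713), Sycp1 and Sycp3 had log2 fold changes of -0.59 and -0.75 (adjusted p = 0.134 and 0.151), and Ldhc had 0.11. The 5 spermatogonial markers summed to 48.3 and 45.3 CPM in KO testes, against 55.3 and 67.1 CPM in WT testes. Sertoli markers (5) summed to 3.44 and 4.52 CPM in KO testes, against 9.41 and 4.60 CPM in WT testes, and Leydig markers (5) to 6.33 and 5.11 CPM, against 14.6 and 8.66 CPM in WT testes. Macrophage markers (5) summed to 18.0 and 10.6 CPM in KO testes, against 10.99 and 3.85 CPM in WT testes. Epididymis markers (5) summed to 0.263 and 0.511 CPM in KO testes, against 0.269 and 0.262 CPM in WT testes, with Lcn5 and Defb12 at 0. This sum joins markers that went opposite ways. Crisp1 had 7 and 12 counts in KO testes, against 0 and 2 in WT testes, and Adam7 had 1 and 1, against 0 and 0. Spint5 had 1 and 7 counts in KO testes, against 7 and 8 in WT testes. No epididymis marker passed the filter on low counts. The part of these marker differences in the receptor values was not tested.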

How the data were processed

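RNA from testes was profiled in 2 KO and 2 WT libraries, grouped by sample title. Per the labels' protocols, poly(A) RNA was captured from total RNA and full-length cDNA was amplified by PCR. The authors deposited whole-number read counts for 22274 Ensembl genes. Per the submitters' processing notes the tools included RSEM, HISAT2 2.1.0 and StringTie 1.3.1, beside Bowtie2 2.2.8 and, for reads, fastp 0.18.0, with no roles stated. The sources used here do not give genome build, annotation, strandedness or the treatment of multi-matching reads, so receptor paralogs and overlapping genes are uncertain. Columns, whose names hold some unexplained letters, were matched by genotype and replicate number.

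Testing used edgeR 4.0.16 under R 4.3.3 (quasi-likelihood, two-sided, genotype only). TMM factors were 0.987 and 0.940 for KO and 1.00 and 1.08 for WT libraries. Genes were kept by filterByExpr (minimum count 10, minimum total 15), and p-values were adjusted by Benjamini-Hochberg over 15636 genes at 0.05. The SE is the log2 fold change divided by the square root of F. DESeq2 1.42.0, limma 3.58.1, other scalings, filters and left-out libraries were alternatives. The pipeline was tested on simulated data. Names, positions and coding sequences came from GENCODE M21 on GRCm38, matched by Ensembl identifier (22219 of 22274). Coding identity came from global alignment with Biopython 1.88. Named members were the called ones, the 12 most abundant, the 8 with the smallest p and receptors known from other work. Olfr1383, Olfr1388 and Olfr1389 were added as members of the cluster. Genes most like a called member are not given, since 4 libraries are too few for a correlation. Members and lists were chosen with earlier results of these data known. Same-numbered libraries did not deviate together (r = -0.243 across genes).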

Additional observations from a re-analysis of the deposited data

How the results depend on the processing

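The 2 calls held under DESeq2 and upper-quartile scaling, total counts, limma-voom, a filter at a summed count of 10 or at 1 CPM, and a summed count of 50 for membership. Members called higher numbered 4 with no filter, 4 with DESeq2 as the test, 1 at an adjusted p under 0.01, and 1 to 6 with a library left out, where the lone library of a genotype is assumed to vary like the others. Members called lower numbered 0 throughout. For all genes, those higher numbered 32 with total counts, 171 with no filter, 383 with DESeq2, 11 at 0.01 and 13 to 1374 with a library left out. Those lower numbered 280 with no filter, 628 with DESeq2, 7 at 0.01 and 8 to 2034 with a library left out. List genes higher numbered 2 with no filter, 2 with DESeq2 and 0 to 8 with a library left out. List genes lower numbered 0 with DESeq2 size factors, 0 with total counts, 2 with DESeq2, 0 at 0.01 and 0 to 5 with a library left out. The members' median was 0.10 with total counts (-0.10 for all genes) and 0.029 to 0.26 with a library left out. The difference in receptor genes detected was 38 with no common depth and 0.30 at 5 counts. The cause of these changes was not tested.

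The replicate numbers share only a number. With the replicate block, members higher numbered 0 (log2 fold change 4.89 with edgeR adjusted p = 0.0635 for Olfr1392, and 3.20 with 0.159 for Olfr1393), all genes higher 6 and lower 3, list genes lower 0 (Lbr -1.21, adjusted p = 0.188). With a crossed pairing, chosen after seeing the data, members higher numbered 5, all genes higher 298 and lower 604, and list genes higher 2.

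Among 263 alternative values of 19 named members, 229 kept direction and call, 16 gained a call, 4 lost it and 14 changed sign, all 14 in members with no call. Under total counts these were -0.059 for Olfr986, -0.070 for Olfr374, -0.093 for Olfr639 and -0.0044 for Olfr1247. With a library left out, the range was -0.038 to 0.34 for Olfr839-ps1, -0.099 to 0.20 for Olfr986, -0.17 to 0.22 for Olfr374, -0.16 to 0.16 for Olfr639, -0.14 to 0.33 for Olfr1247 and -0.32 to 0.13 for Olfr613, with the negative values without WT replicate 1 or KO replicate 2. The log2 ratio of the summed level lay between 0.12 and 0.34. At this depth a member near 10 counts cannot show a modest difference.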

Other observations

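Other chemosensory receptor families were also counted in testis. Of 210 Vmn1r vomeronasal receptor genes, which detect pheromones, 38 reached 10 counts and 22 were tested. Their median log2 fold change was 0.23, and edgeR with the low-count filter called none. Vmn1r43 had the smallest p, at 11.1 and 8.99 CPM in KO testes, against 5.07 and 5.31 CPM in WT testes (0.95 ± 0.17, edgeR adjusted p = 0.0809). It was called by DESeq2 (DESeq2 adjusted p = 0.00458) and by edgeR with no filter (edgeR adjusted p = 0.0343). Of 122 Vmn2r genes, 40 reached 10 counts and 26 were tested, with a median of 0.27 and no call. A single gene carried most of that family, Vmn2r53, at 350 and 401 CPM in KO testes, against 288 and 344 CPM in WT testes (0.25, edgeR adjusted p = 0.260). For comparison, the median of the olfactory receptor members tested was 0.22 and that of all genes 0.01. Of all genes tested, 0.454% were called in each direction.

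Few taste or trace amine receptor genes were counted. All 15 Taar genes had 0 counts in all 4 libraries. Of the 3 Tas1r genes, which encode sweet and umami receptor subunits, 2 were tested, with a median of 0.26 and no call. Tas1r1 had 30.8 and 26.6 CPM in KO testes, against 28.0 and 20.5 CPM in WT testes. Of 35 Tas2r bitter receptor genes 2 reached 10 counts, and of 7 formyl peptide receptor genes (Fpr) 0 did.

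Another 8 rows with an olfactory receptor name in the annotation reached 10 counts but carry no description in the deposited table, so they lay outside the rule. One of these, picked after its values were seen, is the pseudogene Olfr947-ps1, with 12 and 13 counts in KO testes, against 1 and 1 counts in WT testes.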
